A study of Mus musculus with 2 samples.

Results

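The genes that make cholesterol and fatty acids, with the factors that switch them on, were measured in mouse macrophages with and without legumain. The set holds 33 genes, named by their known roles and matched by symbol to the Entrez identifiers of the deposited gene tables, of 15605 genes listed in the 2 libraries together. All 33 were listed in at least 1 library and 32 in both. Of these, 27 reached 50 estimated counts in the higher library, the minimum used for ratios, out of 9498 genes that did so.

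The KO library came from peritoneal macrophages of C57BL/6 mice with the lgmn-/- genotype, and the WT library from those of wild type C57BL/6 mice. Animals of both groups were 6 to 8 weeks old, and in both cases the macrophages had spent 4 days beside EO771, a mammary carcinoma cell line of the mouse. Lgmn encodes legumain, a lysosomal protease. There was 1 library per genotype, so no p-value could be computed, and each difference below describes these libraries without a replicate check. How many mice were pooled, which exons were deleted, and whether a membrane kept the tumour cells apart are not given in the sources used here.

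Cells make cholesterol from acetyl-CoA through mevalonate, squalene and lanosterol, and fatty acids from the same acetyl-CoA through malonyl-CoA. Both routes are switched on by the SREBP transcription factors, which sit in the endoplasmic reticulum until sterol is scarce and are then escorted to the Golgi and cut free. Macrophages take in much cholesterol with the cells and lipoproteins they digest, and in such cells sterol feeds back on synthesis.

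The KO library held 11740202 estimated read counts and the WT library 11885784. Levels are given as FPKM, a fragment count divided by transcript length and library size, and ratios are of counts scaled with TMM factors, which assume that most genes do not differ. Lgmn had 426 counts and an FPKM of 19.2 in the KO library, against 23550 counts and an FPKM of 1048 in the WT library, so the libraries match their genotype labels. Macrophage markers were abundant in both, with summed counts over 10 genes of 245807 in the KO library and 268540 in the WT library, and 1 of the 9 with enough counts, Mertk, was at least 2-fold higher. Among all 9498 genes with enough counts 6.07% were at least 2-fold higher in the KO library and 1.74% at least 2-fold lower. None of 8 adipocyte markers was listed in either library. The 9 carcinoma epithelial markers summed to 34 counts in the KO library and 93 in the WT library, with Krt14 and Cldn4 listed in neither library, and Krt19 was the only one with enough counts and was at least 2-fold lower. Of 6 fibroblast markers with enough counts 5 were at least 2-fold lower, with summed counts over 9 genes of 502 in the KO library and 1149 in the WT library. The 5 mesothelial markers summed to 3 counts in the KO library and 28 in the WT library, and the 4 B cell markers to 41 in the KO library and 23 in the WT library. The 6 T and NK cell markers summed to 392 counts in the KO library and 189 in the WT library, with 2 of the 4 that had enough counts past 2-fold on the high side. The part of these cells in the results was not tested, and in such bulk RNA fewer cells of a type and less RNA per cell cannot be told apart.

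Most of the 33 synthesis genes differed little between the genotypes, and 26 of the 27 with enough counts stayed within 2-fold. Acaca alone passed 2-fold on the high side in the KO library, and 0 did so on the low side. Over all 9498 genes 577, or 6.07%, passed 2-fold on the high side and 165, or 1.74%, on the low side, a split that became 1036 and 107 with library totals as the scaling, so 1 gene of 27 is no larger a share than among genes at large. The median log2 ratio of KO over WT was 0.09 for the 27 genes, and -0.00035 for all genes. Sterol enzymes had a median of -0.16 over 16 genes, whose sign turned with the scaling, to 0.073 with library totals and 0.069 with deposited FPKM. Fatty acid enzymes had a median of 0.45 over 5 genes. Sqle, Insig2 and Sc5d had the lowest ratios of the 27 genes, and Acaca and Stard4 the highest.

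Ratios in these libraries followed transcript length, and that bears on every gene of the set. Genes of longer transcripts had higher KO over WT ratios, with a Spearman rho of 0.609 across the 9498 genes and of 0.791 across the 27 synthesis genes, which share the 2 libraries and are not replicates. The 11 synthesis genes of at least 3000 bases all had a log2 ratio above 0, with a median of 0.43, and of the 16 shorter ones 4 did, with a median of -0.22. A smooth trend of the log2 ratio on log2 length was therefore subtracted, and the outcome is called length-adjusted below. After it 0 of the 27 genes passed 2-fold in either direction, against 2.14% of all genes on the high side and 1.90% on the low side. The length-adjusted medians were -0.027 for sterol enzymes and -0.031 for fatty acid enzymes.

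**Figure D1:**
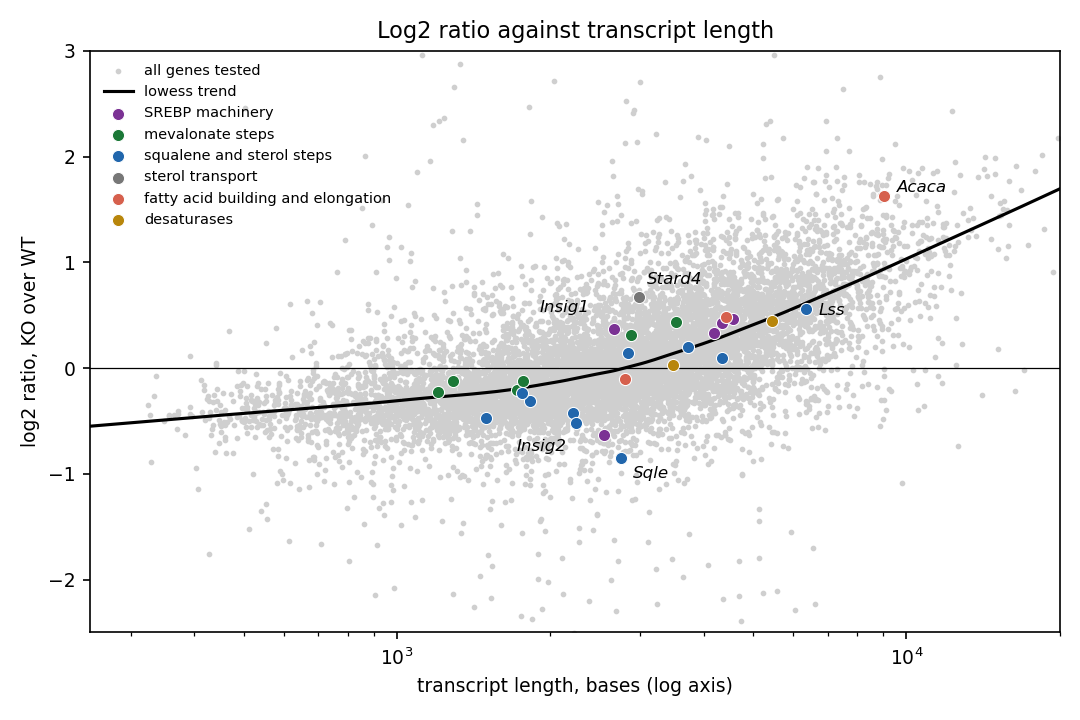
Log2 ratio of KO over WT against transcript length in bases, on a log axis, for the 9498 genes with at least 50 counts (grey), with the lowess trend as a black line and the 27 synthesis genes coloured by role. The synthesis genes climb with length as the grey cloud does, Sqle and Insig2 lie well under the line, and 31 genes fall outside the axes.

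**Figure D2:**
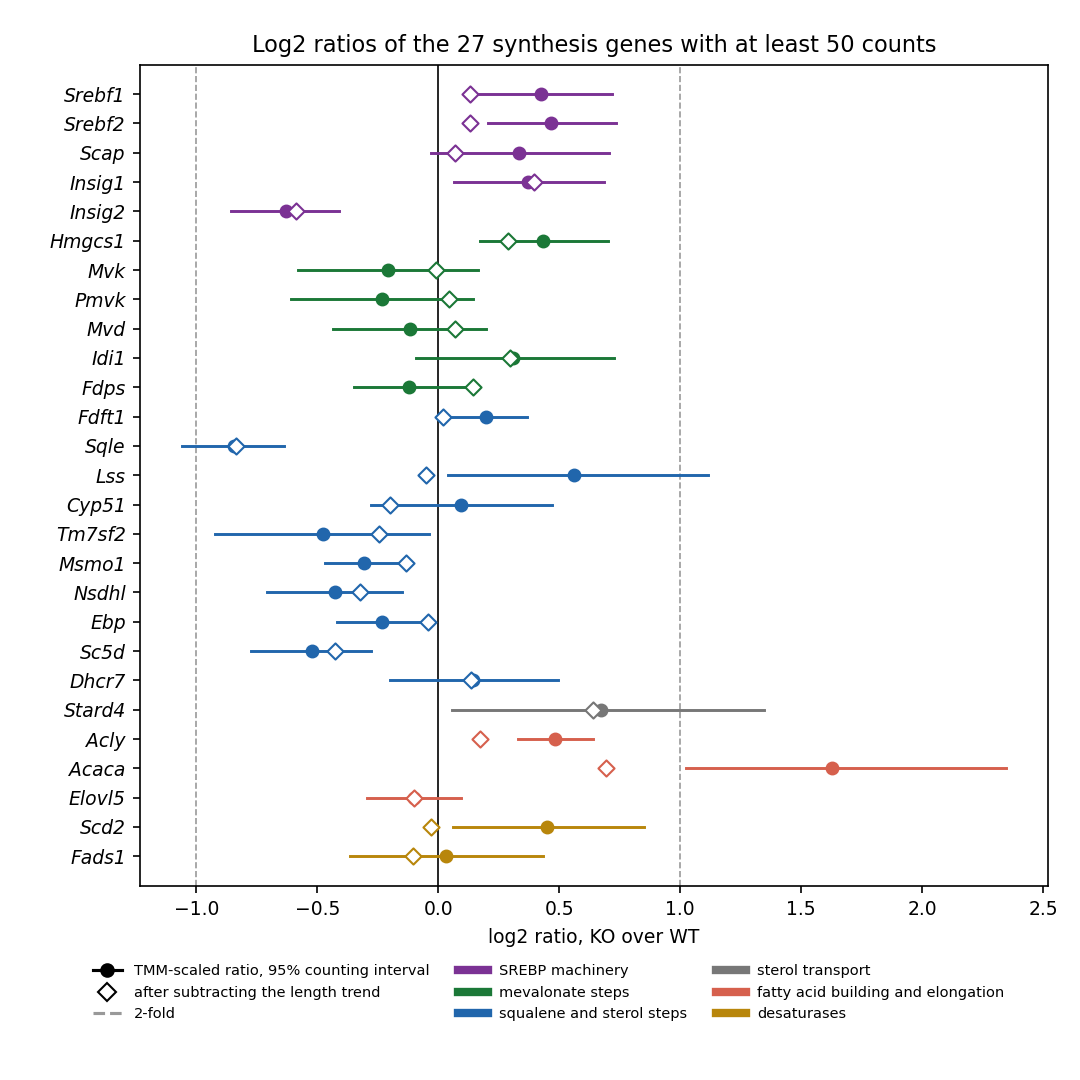
Log2 ratio of KO over WT for the 27 synthesis genes, by role, with 95% counting intervals as bars and the length-adjusted value as an open diamond. Acaca is the only filled point past the dashed 2-fold line at 1.63, and its diamond is at 0.69.

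Of the 5 genes of the SREBP machinery 4 lay above 0, by less than 2-fold, and Insig2 lay below, with a group median log2 ratio of 0.37 and of 0.13 once adjusted. Among all 9498 genes 4747 lay above 0, and 4642 (48.9%) after length adjustment. Srebf1, which encodes the factor that leans towards fatty acid genes, had 260 counts in the KO library and 166 in the WT library, a ratio of 1.34 with a 95% counting interval of 1.10 to 1.64. Srebf2, whose product leans towards cholesterol genes, had 313 and 194 counts in the KO and WT libraries, a ratio of 1.38 (1.15 to 1.66). Scap, the sterol-sensing escort of both, had 156 and 106 counts in the KO and WT libraries, a ratio of 1.26 (0.98 to 1.63). Their transcripts run to 4344 bases for Srebf1, 4570 for Srebf2 and 4182 for Scap, and the length-adjusted log2 ratios were 0.13, 0.13 and 0.07, with intervals that included 0. Srebf2 stood to Srebf1 as 1.14 in the KO library and as 1.11 in the WT library, in FPKM, and the odds ratio of their counts was 1.03 (0.78 to 1.35), within counting error of no difference.

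The INSIG proteins hold the Scap and SREBP complex in the endoplasmic reticulum when sterol is plentiful, and their genes went opposite ways. Insig1, itself a SREBP target, had 219 counts in the KO library and 145 in the WT library, a ratio of 1.30 (1.05 to 1.61). Insig2, at chr1:121304353-121332662 in GRCm38.p6, had 293 counts in the KO library and 390 in the WT library, which is 1.55-fold lower (1.33 to 1.81). Their transcripts are of like length, 2667 bases for Insig1 and 2550 for Insig2, and the adjusted log2 ratios were 0.40 for Insig1 and -0.59 for Insig2. Set against each other within a library, which needs no scaling, Insig2 stood to Insig1 as 1.39 in the KO library and as 2.84 in the WT library in FPKM. The odds ratio of their counts, KO over WT, was 0.50 (0.38 to 0.65).

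The upstream windows of these sister genes are shown with that of Hmgcs1, since Insig1 and Hmgcs1 were higher in the KO library and Insig2 was lower. RefSeq windows of GRCm38.p6, reaching 250 bases before and 50 after a start, were matched for 26 of the 33 genes, with 34 windows in all. They were searched on both strands for TCACNCCAC, the letters of the classical sterol regulatory element, for CCAAT, the letters that the SREBP partner NF-Y binds, and for GGGCGG, those of Sp1. The 250 bases before the start are given 5′ to 3′ on the gene's strand, with TCACNCCAC and CCAAT on either strand in capitals, at chr13:119690101-119690350 on the plus strand for Hmgcs1, chr5:28071162-28071411 on the plus strand for Insig1 and chr1:121332590-121332839 on the minus strand for the outermost of 3 starts of Insig2.
Hmgcs1: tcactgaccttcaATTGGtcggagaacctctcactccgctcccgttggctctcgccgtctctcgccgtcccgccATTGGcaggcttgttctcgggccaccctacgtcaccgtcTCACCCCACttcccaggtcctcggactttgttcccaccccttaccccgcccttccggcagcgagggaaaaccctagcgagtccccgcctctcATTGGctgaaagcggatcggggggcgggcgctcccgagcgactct
Insig1: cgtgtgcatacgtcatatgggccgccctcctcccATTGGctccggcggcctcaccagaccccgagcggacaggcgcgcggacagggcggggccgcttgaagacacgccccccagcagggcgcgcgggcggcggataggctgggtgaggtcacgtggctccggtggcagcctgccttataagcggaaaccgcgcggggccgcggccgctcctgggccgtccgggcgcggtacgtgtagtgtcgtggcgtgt
Insig2: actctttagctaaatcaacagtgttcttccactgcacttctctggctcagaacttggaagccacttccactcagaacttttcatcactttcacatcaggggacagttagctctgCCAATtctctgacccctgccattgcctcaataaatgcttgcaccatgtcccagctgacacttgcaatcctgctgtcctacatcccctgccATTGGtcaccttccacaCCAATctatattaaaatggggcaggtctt

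Hmgcs1 was the only gene of the 26 with TCACNCCAC, 137 bases before its start, and 1.44% of 27025 genes in the table had that match. CCAAT was found for 21 of the 26 genes, or 80.8%, against 41.1% of all genes, and GGGCGG for 21 of 26, against 38.2%. By window the shares were 64.7% of 34 against 37.4% of 32851 for CCAAT, and 73.5% against 35.7% for GGGCGG. Hmgcs1 had 4 matches of CCAAT, 1 of them past the start, Insig1 had 1 and the printed Insig2 window 3, while the other Insig2 windows had 0. Which Insig2 start these macrophages use was not tested. GGGCGG had 3 matches for Hmgcs1 and 3 for Insig1, 0 in the printed Insig2 window and 1 in each other Insig2 window. These matches describe the letters of the windows and not binding, and no match says only that these letters are not in that window. Sqle, Fdft1, Fdps, Stard4, Scd1, Scd2 and Fads1 had no window and were not searched. The window of Acaca, at chr11:84195188-84195487, lies inside the span of the gene, chr11:84129635-84401651.

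Of 6 mevalonate genes with enough counts 0 passed 2-fold, with a median log2 ratio of -0.12 and of 0.11 once adjusted. Hmgcs1, which condenses acetoacetyl-CoA with acetyl-CoA to HMG-CoA, had 312 counts in the KO library and 198 in the WT library, a ratio of 1.35 (1.13 to 1.62). Idi1, the isomerase of the isoprene unit, had 126 and 87 counts in the KO and WT libraries, a ratio of 1.24 (0.94 to 1.65). Their length-adjusted log2 ratios were both 0.29. Between them, Mvk had 124 counts in the KO library and 123 in the WT library, Pmvk had 120 in the KO library and 121 in the WT library, and Mvd had 176 in the KO library and 164 in the WT library. These kinases and the decarboxylase turn mevalonate into the isoprene unit, and their intervals all included 1, with length-adjusted log2 ratios of -0.01, 0.04 and 0.07.

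Fdps, which joins isoprene units into farnesyl diphosphate, was the mevalonate gene with the highest FPKM, 21.7 in the KO library and 20.1 in the WT library. Its ratio of 0.92 had an interval of 0.78 to 1.08. Acat2, the cytosolic thiolase that starts the route, had only 42.4 counts in the KO library and 32.3 in the WT library. It has a close copy, Acat3, between which reads are divided by an estimate, and the sum of both was 368 in the KO library and 369 in the WT library, 0.86 of the WT value after scaling (0.74 to 0.99).

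Of the 10 squalene and sterol enzymes with enough counts, 6 lay below 0, and 8 did after length adjustment, with medians of -0.27 and -0.17. Sqle was the lowest of them. For comparison, 4747 of all 9498 genes lay above 0, and 4642 (48.9%) after length adjustment. Sqle, at chr15:59315092-59331193 in GRCm38.p6, encodes squalene epoxidase, an oxygen-dependent and rate-limiting step whose protein cholesterol is known to destabilise. It had 306 counts and an FPKM of 9.36 in the KO library, against 473 counts and an FPKM of 14.3 in the WT library. It was 1.80-fold lower (1.56 to 2.09), the lowest ratio of the 27 genes. Its transcript of 2748 bases lies where the length trend is near 0, and its log2 ratio was -0.85 before and -0.84 after adjustment. Among 949 genes of 2745 to 3217 bases, 11 had a ratio as low as that of Sqle or lower. Sqle was picked for this rank as the lowest of 27 genes, so the rank is that of an extreme and not of a gene named beforehand.

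The enzymes on either side of Sqle lay above 0 before length adjustment. Fdft1, the squalene synthase just before it, had 670 counts in the KO library and 501 in the WT library, a ratio of 1.15 (1.02 to 1.29), with a length-adjusted log2 ratio of 0.02. Lss, the lanosterol synthase just after it, had 83 counts in the KO library and 48 in the WT library, a ratio of 1.48 (1.03 to 2.16). The transcript of Lss is 6339 bases long, and length adjustment took its log2 ratio to -0.05. In FPKM Sqle stood to Fdft1 as 0.62 in the KO library and as 1.28 in the WT library, and to Hmgcs1 as 1.26 in the KO library and as 3.07 in the WT library. The odds ratios of the counts, KO over WT, were 0.48 (0.40 to 0.58) against Fdft1 and 0.41 (0.32 to 0.52) against Hmgcs1. Neither depends on the scaling between libraries, but neither is adjusted for length. The transcripts of Fdft1, at 3717 bases, and Hmgcs1, at 3523, are longer than that of Sqle, at 2748, and the length trend was 0.18, 0.14 and -0.01 in turn.

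Several of the enzymes that trim lanosterol lay on the low side with Sqle, by less. Sc5d, the lathosterol desaturase, had 247 counts in the KO library and 305 in the WT library and was 1.44-fold lower (1.21 to 1.71). Nsdhl, a dehydrogenase of the demethylation complex, had 200 and 231 counts in the KO and WT libraries and was 1.35-fold lower (1.11 to 1.63). Their length-adjusted log2 ratios were -0.43 and -0.32. Msmo1, the methyl oxidase of the same complex, had the highest FPKM of the whole set, 28.62 in the KO library and 30.01 in the WT library, and was 1.24-fold lower (1.11 to 1.39). Tm7sf2, a sterol reductase, had 81 and 97 counts in the KO and WT libraries, a log2 ratio of -0.48 (-0.92 to -0.04). After length adjustment the intervals of Msmo1 and Tm7sf2 included 0, with log2 ratios of -0.13 and -0.24.

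The remaining sterol enzymes with enough counts had length-adjusted intervals that included 0. Ebp, the sterol isomerase, had 478 counts in the KO library and 482 in the WT library, 1.18-fold lower (1.03 to 1.34) after scaling, and a length-adjusted log2 ratio of -0.04. Cyp51, the lanosterol demethylase, had 137 and 110 counts in the KO and WT libraries, with -0.20 after adjustment. Dhcr7, the reductase of a last step, had 161 and 125 counts in the KO and WT libraries, with 0.13 after adjustment. Hsd17b7, the ketoreductase of the demethylation complex, had 19 counts in the KO library and 6 in the WT library, below the minimum, at a ratio of 2.72 (1.04 to 8.31). Lbr, a nuclear envelope protein that shares the reductase activity of Tm7sf2, is not in the set, was chosen after its values had been seen and had 86 and 38 counts in the KO and WT libraries, with log2 ratios of 0.94 unadjusted and 0.79 adjusted. Stard4, a carrier of cholesterol between membranes and a SREBP target, had 62 counts in the KO library and 33 in the WT library, a ratio of 1.61 (1.04 to 2.54), with 0.64 after adjustment.

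Of the 9 fatty acid genes, Acly and Elovl5 had an FPKM above 10 in both libraries, and the other 7 were below 3 in both. Acly, which makes cytosolic acetyl-CoA from citrate, had an FPKM of 16.6 in the KO library and 10.1 in the WT library. Its 880 and 540 counts in the KO and WT libraries gave a log2 ratio of 0.48 (0.33 to 0.64), and 0.17 once adjusted for length. Acaca, at chr11:84129635-84401651 in GRCm38.p6, the acetyl-CoA carboxylase that commits carbon to fatty acids, had 96 counts and an FPKM of 0.88 in the KO library, against 26 counts and an FPKM of 0.24 in the WT library. It was 3.17-fold higher (2.04 to 5.09). Its transcript of 9054 bases falls in the longest of 10 equal length groups, in which 32.5% of genes passed 2-fold on the high side, and its length-adjusted log2 ratio was 0.69. Fasn, the fatty acid synthase, with a transcript of 9938 bases, had 38 counts in the KO library and 10 in the WT library, below the minimum. Its ratio of 3.26 (1.59 to 7.34) corresponded to a length-adjusted log2 ratio of 0.59.

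Among elongases and desaturases the genes with enough counts differed by less than 1.5-fold. Elovl5, an elongase of polyunsaturated fatty acids, had 460 counts in the KO library and 423 in the WT library, a ratio of 0.93 (0.82 to 1.07). Elovl6, which lengthens saturated chains, had 11.2 and 7.12 counts in the KO and WT libraries. Scd2 was the main stearoyl-CoA desaturase gene here, with an FPKM of 2.18 in the KO library and 1.34 in the WT library, while Scd1, the prominent form of liver, had 0.05 in the KO library and 0.19 in the WT library. The log2 ratio of Scd2 was 0.45 unadjusted and -0.03 adjusted. Scd1 rested on 3 counts in the KO library and 11 in the WT library, 4.27-fold lower with an interval of 1.13 to 23.9. Scd1 to Scd4 are similar copies, and their summed counts of 166 in the KO library and 118 in the WT library gave a ratio of 1.21 (0.95 to 1.54).

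In the polyunsaturated branch Fads2 was close to the detection limit. Fads1, the desaturase that follows it, had 118 counts in the KO library and 99 in the WT library, a ratio of 1.02 (0.78 to 1.35). Fads2, the entry desaturase, was not listed in the KO library and had 6 counts in the WT library, so no ratio is given.

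**Figure D3:**
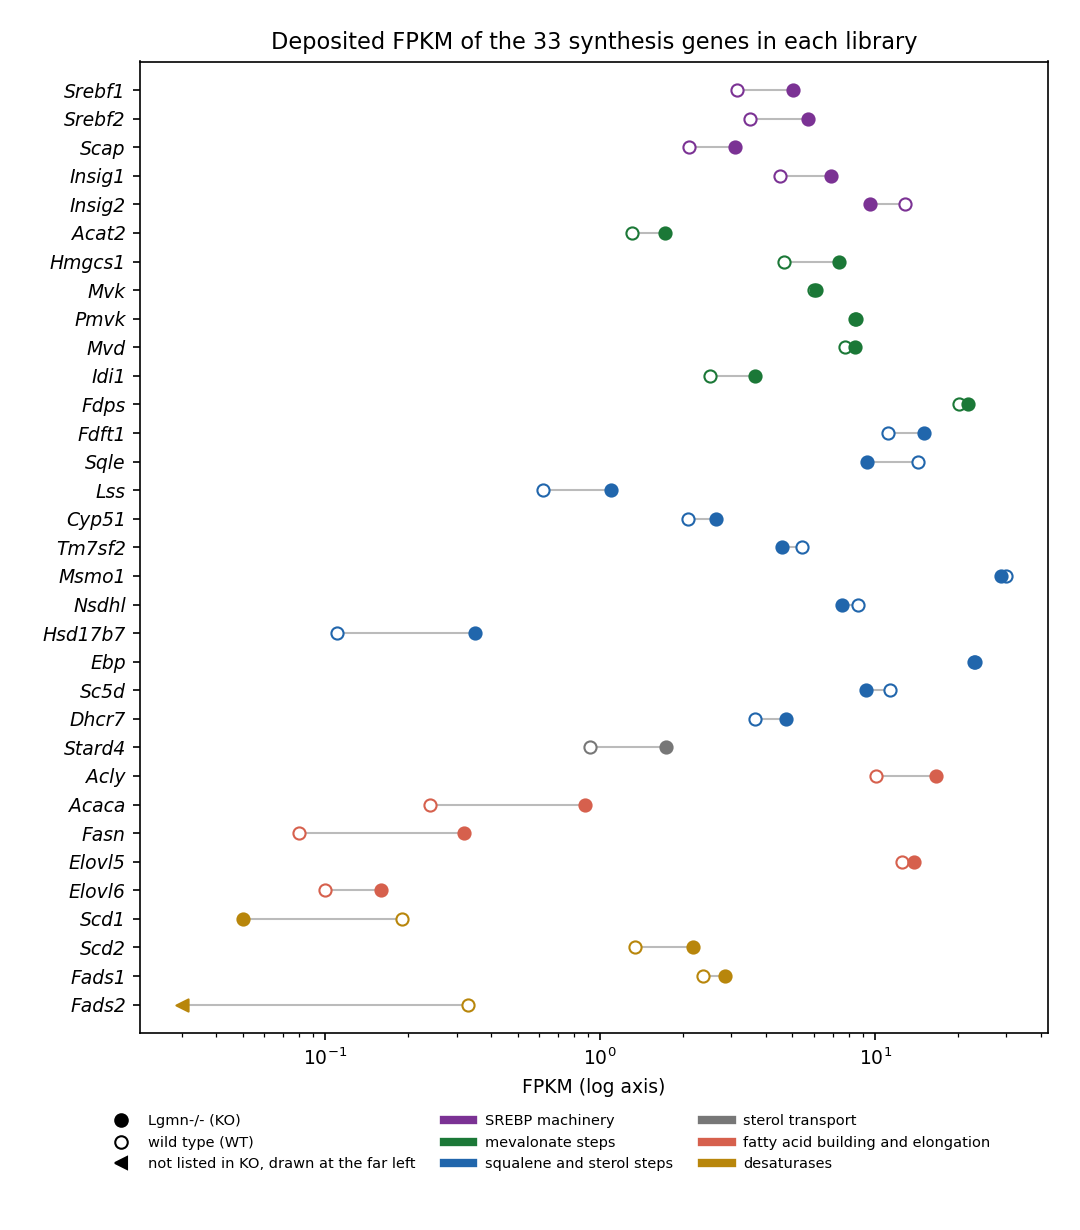
Deposited FPKM of the 33 genes on a log axis, by role, with filled points for the KO library and open points for the WT library. Msmo1, Ebp and Fdps have the highest levels in both libraries, Fasn, Elovl6, Scd1, Hsd17b7 and Fads2 lie under 0.5 in both, and Fads2 is not listed in the KO library.

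Levels per length ordered the genes alike in both libraries, with a Spearman rho of 0.974 over the 33 genes, which share the libraries and their length estimates. Msmo1, Ebp and Fdps headed the FPKM order in both. Sqle came next after them in the WT library at 14.3 and lay below Acly, Fdft1, Elovl5 and Insig2 in the KO library at 9.36. Summed over the 18 sterol enzymes, FPKM was 163.9 in the KO library and 160.9 in the WT library, and over the 9 fatty acid enzymes 36.9 in the KO library and 27.2 in the WT library. Summed counts with TMM scaling, not adjusted for length, gave KO over WT ratios of 0.89 (0.85 to 0.93) for the sterol enzymes and 1.24 (1.15 to 1.33) for the fatty acid enzymes. The direction for the sterol enzymes thus differed between the 2 measures.

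Directions of single genes need the scaling to be kept in view. Counts were scaled with TMM factors, and scaling by library totals or deposited FPKM put the median log2 ratio of all genes at 0.24 and 0.23. Across TMM, DESeq2 size factors, totals, FPKM and the length adjustment, 11 genes lay above 0 in all 5 settings, which were Srebf1, Srebf2, Scap, Insig1, Hmgcs1, Idi1, Fdft1, Dhcr7, Stard4, Acly and Acaca. Another 6 lay below 0 in all 5, which were Insig2, Sqle, Tm7sf2, Msmo1, Nsdhl and Sc5d. The sign of the other 10 depended on the setting. These settings are not independent, as TMM and DESeq2 gave nearly the same ratios, and totals and FPKM gave similar ones. For Srebf1 the log2 ratios were 0.4244 with TMM, 0.4249 with DESeq2, 0.66 with totals and 0.65 with FPKM. The share of all genes that kept their sign was not counted. With TMM scaling the counting interval lay above 1 for 10 of the 27 genes, below 1 for 7 and included 1 for 10, and over all 9498 genes it lay above 1 for 29.6% and below 1 for 30.7%. After length adjustment it lay above 0 for Insig1, Hmgcs1, Stard4, Acly and Acaca, below 0 for Insig2, Sqle, Nsdhl and Sc5d, and included 0 for 18, against 20.3% of all genes above 0 and 25.9% below. The synthesis genes thus left the interval of no difference about as often as genes at large before length adjustment, and no more often after it. All intervals describe the error of counting alone, as no molecular identifiers are reported and PCR copies of a molecule may be counted.

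Around the pathway, 0 to 2 genes with enough counts in each list passed 2-fold. Of 14 genes of SREBP cleavage, INSIG turnover and partner factors 0 passed 2-fold, and the median log2 ratio was 0.15, or -0.02 after length adjustment. Mbtps1, the protease that makes the first SREBP cut, had log2 ratios of 0.61 and 0.33 before and after adjustment, and Mbtps2, the protease of the next cut, -0.08 and -0.46. Syvn1, a ubiquitin ligase of the endoplasmic reticulum, had 170 counts in the KO library and 81 in the WT library, with 0.84 and 0.74. The median of all genes after adjustment was -0.01.

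The sterol-sensing LXR receptors and their targets, which export cholesterol, lay above 0 in 9 of 13 genes, and in 11 after length adjustment, against 4747 and, adjusted, 4642 (48.9%) of all 9498 genes. On the high side 2 passed 2-fold, where 6.07% of all genes did, and on the low side 0, with a median log2 ratio of 0.52, and after length adjustment 0 passed 2-fold and the median was 0.10. Nr1h3, which encodes LXR alpha, had 645 counts in the KO library and 360 in the WT library, with log2 ratios of 0.62 before and 0.80 after adjustment. Apoe, the lipoprotein that carries cholesterol out of macrophages, had an FPKM of 10104 in the KO library and 5967 in the WT library, with 0.52 and 0.78. Abca1, the exporter to lipid-poor lipoprotein, had 1.78 and 0.72, and Abcg1, its partner, 0.59 and 0.06. Others of the list differed little or lay below 0, with -0.04 unadjusted and 0.10 adjusted for Nr1h2, which encodes LXR beta, and -0.02 and 0.03 for Lpcat3, a phospholipid remodelling enzyme. Pltp, a phospholipid transfer protein, had -0.23 unadjusted and -0.05 adjusted, and Lpl, the lipoprotein lipase, 0.0026 and -0.24.

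Of 12 genes of cholesterol uptake and transport with enough counts 1 was at least 2-fold higher, Lrp1, and 0 lower. Over all genes 6.07% were higher and 1.74% lower. The list medians were -0.09 and, length-adjusted, -0.15. Lrp1 has a transcript of 14907 bases, and its log2 ratio was 1.99 before and 0.58 after length adjustment. After adjustment 0 genes of the list passed 2-fold. Vldlr lay below the minimum, with 14 counts in the KO library and 43 in the WT library, 3.58-fold lower (1.92 to 7.08). Gramd1c, also below it, had 1 and 2 counts in the KO and WT libraries. Gramd1a and Gramd1b, carriers of cholesterol from the plasma membrane, had adjusted log2 ratios of -0.51 and -0.62. Of 4 genes for oxysterol and cholesteryl ester enzymes with enough counts 0 passed 2-fold, with medians of 0.12 and -0.13. Cyp27a1, which makes an oxysterol, had 103 counts in the KO library and 60 in the WT library. The other 3 genes of this list lay below the minimum. Cyp7b1 had 4 counts in the KO library and 32 in the WT library, 9.32-fold lower (3.31 to 36.3). Ch25h had 7 and 4 counts in the KO and WT libraries, and Soat2 had 16 and 18. Of 8 isoprenoid branch genes 0 passed 2-fold, with medians of -0.23 and -0.19. Ggps1, the branch to geranylgeranyl diphosphate, had 267 counts in the KO library and 323 in the WT library.

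The fatty acid neighbours with enough counts gave 1 gene past 2-fold by either measure. Of 13 genes of acetyl-CoA and NADPH supply, activation and other elongation 1, Me1, was at least 2-fold higher and 0 were lower. Over all genes 6.07% were higher, and 2.14% after length adjustment. The list medians were 0.01 and, length-adjusted, 0.05. Me1, the cytosolic malic enzyme that yields NADPH for fatty acid synthesis, had 51 counts in the KO library and 18 in the WT library, with log2 ratios of 1.24 and 1.15. Of 10 glycerolipid genes and of 11 fatty acid oxidation genes 0 passed 2-fold, with medians of -0.17 and -0.03, and of -0.12 and -0.10 after adjustment. Cpt1a, the rate-limiting enzyme of mitochondrial fatty acid import, had 500 counts in the KO library and 229 in the WT library, with 0.90 and 0.61, and Pparg, a lipid-sensing receptor, had 432 counts in the KO library and 611 in the WT library, with -0.72 and -0.56.

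**Figure D4:**
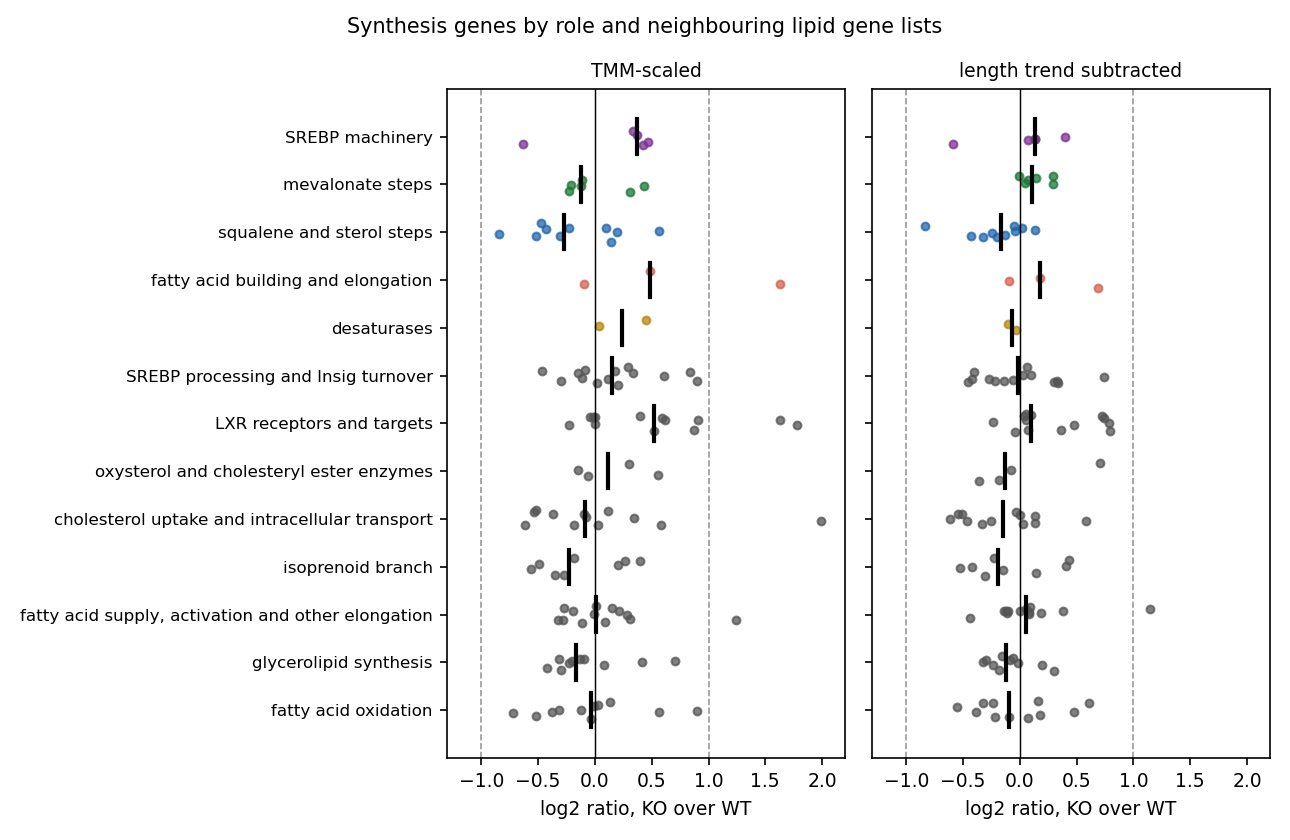
Log2 ratios of KO over WT for genes with at least 50 counts, by role for the synthesis genes (coloured) and by list for neighbouring lipid genes (grey), with TMM scaling on the left and after length adjustment on the right. Black bars are medians, dashed lines mark 2-fold, and on the right Me1 is the only gene past a dashed line. Stard4, alone in its role, is not drawn.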

How the data were processed

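RNA of 1 lgmn-/- and 1 wild type macrophage library was sequenced on a BGISEQ-500, per the labels' protocols. The deposited tables give estimated counts, FPKM and transcript length per Entrez gene, per the file headers. HISAT2, Bowtie2, RSEM and mm10 are named without roles in the submitters' processing notes. FPKM is scaled to length and library size by its definition, and how the authors computed it is not stated. The deposited estimated counts had totals that differ between libraries and were taken as unscaled. A gene not listed in a file was given 0 counts there. The sources used here do not say whether counting used strand, so reads of overlapping genes may be shared.

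Symbols came from RefSeq (GRCm38.p6, the assembly of mm10), matching 15561 of 15605 genes. Counts were rounded and scaled with TMM factors (edgeR 4.0.16, R 4.3.3), 1.09 for KO and 0.921 for WT. Log2 ratios used 1 added scaled count and a minimum of 50 counts, and printed folds used none added. Intervals are 95% exact Clopper-Pearson intervals of the KO share, and odds ratios have exact conditional intervals. The length trend was a lowess fit with a span of 0.3 (statsmodels 0.14.6). DESeq2 1.42.0 size factors were an alternative. The code was tested on simulated data. Python 3.11.15, scipy 1.17.1 and matplotlib 3.10.9 were used.

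Named genes are all 33 members, members of the 8 neighbouring and 7 marker lists, Lgmn, and Lbr, chosen after its values were seen. Acat3, Scd3 and Scd4 are in none of these lists and were used for the summed counts of similar copies. A few results are not reported here. The members and lists were chosen with earlier results of these data known.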

Additional observations from a re-analysis of the deposited data

How the results depend on the processing

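No paired analysis was possible because each genotype has 1 library. Leaving out a library was not possible for the same reason.

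Library totals put 1036 of all genes past 2-fold on the high side and 107 on the low side, with log2 medians of 0.073 for sterol and 0.69 for fatty acid enzymes. Deposited FPKM gave 936 and 102 genes, and medians of 0.069 and 0.66. The sterol median thus changed sign with both. Of all genes past 2-fold, 77.8% were higher with TMM scaling, 90.6% with totals and 90.2% with FPKM. Length adjustment left 203 genes higher and 180 lower against 577 and 165 without it, 0 synthesis genes at least 2-fold higher, and medians of -0.027 for sterol and -0.031 for fatty acid enzymes, the second with a changed sign.

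A minimum of 10 counts gave 923 higher and 436 lower among all genes. It put 3 synthesis genes at least 2-fold higher, Acaca, Fasn and Hsd17b7, and 1 lower, Scd1. No minimum gave 1460 and 1531 among all genes, with 3 synthesis genes higher and 2 lower, Fads2 being added. A minimum of 200 gave 274 and 67 among all genes, 0 synthesis genes higher, and medians of -0.27 over 8 sterol and 0.19 over 2 fatty acid enzymes. A 1.5-fold threshold gave 1563 and 607 among all genes, with 2 synthesis genes higher, Acaca and Stard4, and 2 lower, Sqle and Insig2.

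DESeq2 size factors, a pseudocount of 5 and thinning the deeper library moved no count of genes by over 1.5 times. Under the 6 alternatives that recompute a ratio, 138 of 162 values of the 27 synthesis genes stayed inside the counting interval and 24 moved outside it. All 24 came from library totals, deposited FPKM and length adjustment, as the other alternatives changed the ratios little. Between scalings and length adjustment, 10 of the 27 genes changed sign. Genes under 50 counts, such as Fasn, Hsd17b7 and Scd1, have intervals too wide to size a difference at this depth.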
